A study of Mus musculus with 15 samples.

Results

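The kinesin and dynein motor genes were followed in the cortex of wild-type (WT) and Snord116del mice at 2 times of day. They were chosen by symbol alone, as every gene of the RNA-seq table whose name begins with Kif and a number, Kifc, Klc and a number, Dync or Dynl, which gave 63 of 23235 genes. Of these, 44 were classed by symbol as heavy chains of kinesin or cytoplasmic dynein, 14 as light chains and 5 as intermediate or light intermediate chains of dynein. The 44 include Kif4-ps, whose symbol carries the suffix of a pseudogene and which is not among the genes compared below.

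RNA was from the brain cortex of adult mice. The WT strain was C57BL/6J, and the deletion strain was B6(Cg)-Snord116tm1.1Uta/J, heterozygous for Snord116del (+/-) with the deleted allele inherited from the father. At Zt+6, in the light phase, 3 WT and 2 Snord116del mice were sequenced, and at Zt+16, in the dark phase, 2 WT and 2. No further allele or agent is named for either genotype. The deletion is in every cell of the body and removes both the small nucleolar RNAs and the spliced host transcript 116HG, so the loss of one cannot be told apart from the loss of the other.

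The deposited RNA-seq table has 1 FPKM value (fragments per kilobase of transcript, scaled to the size of the library) per group and gene, and none per mouse. No spread between mice, SD or test can therefore be computed from its levels, and every difference below is between values of pooled groups. A gene was tested, here meaning compared, where its mean over the 4 groups reached 1 FPKM. It was called higher or lower where FPKM + 1 differed by 1.5-fold or more and the higher group reached 1 FPKM. Log2 fold changes are of FPKM + 1 and understate the change of genes at low level. Where FPKM is given as a pair at one time of day, the WT value comes first and the Snord116del value second. In bulk cortex, fewer cells of a type and less RNA per cell cannot be told apart.

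Kinesins are motors that walk along microtubules, most of them towards the plus end, which in an axon lies away from the cell body. Cytoplasmic dynein walks towards the minus end and brings cargo back. In both, the heavy chain holds the motor that hydrolyses ATP, while light, light intermediate and intermediate chains link the motor to cargo or regulate it. Neurons depend on both because their axons are long and most proteins are made in the cell body. The genes differ in length along the same line, since the heavy chains are large proteins and most light chains are small ones. The longest annotated transcript of the 17 tested heavy chain genes had a median of 6439 bases (3217 to 14342), and that of the 10 tested light chain genes 2103 bases (496 to 3169).

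Of the 63 genes, 32 passed the filter on the mean and 31 did not. Among the 32, only Dynlt1a would have been lost without its highest group. The 31 others lay between 0 and 2.97 FPKM over the 4 groups with a median of 0.183, and 24 of them stayed under 1 FPKM in every group. All 12 kinesins listed for cell division were among these 31, from 0.0148 to 1.18 FPKM. The 7 genes with at least 1 FPKM in a group but a mean under the filter included Dync2h1, the heavy chain of the dynein that works inside cilia, at 0.632 and 2.37 FPKM at Zt+6 and 0.195 and 0.235 at Zt+16. Kif13b had its highest value in the same group, with 0.606 and 2.97 FPKM at Zt+6 and 0.120 and 0.155 at Zt+16.

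**Figure D1:**
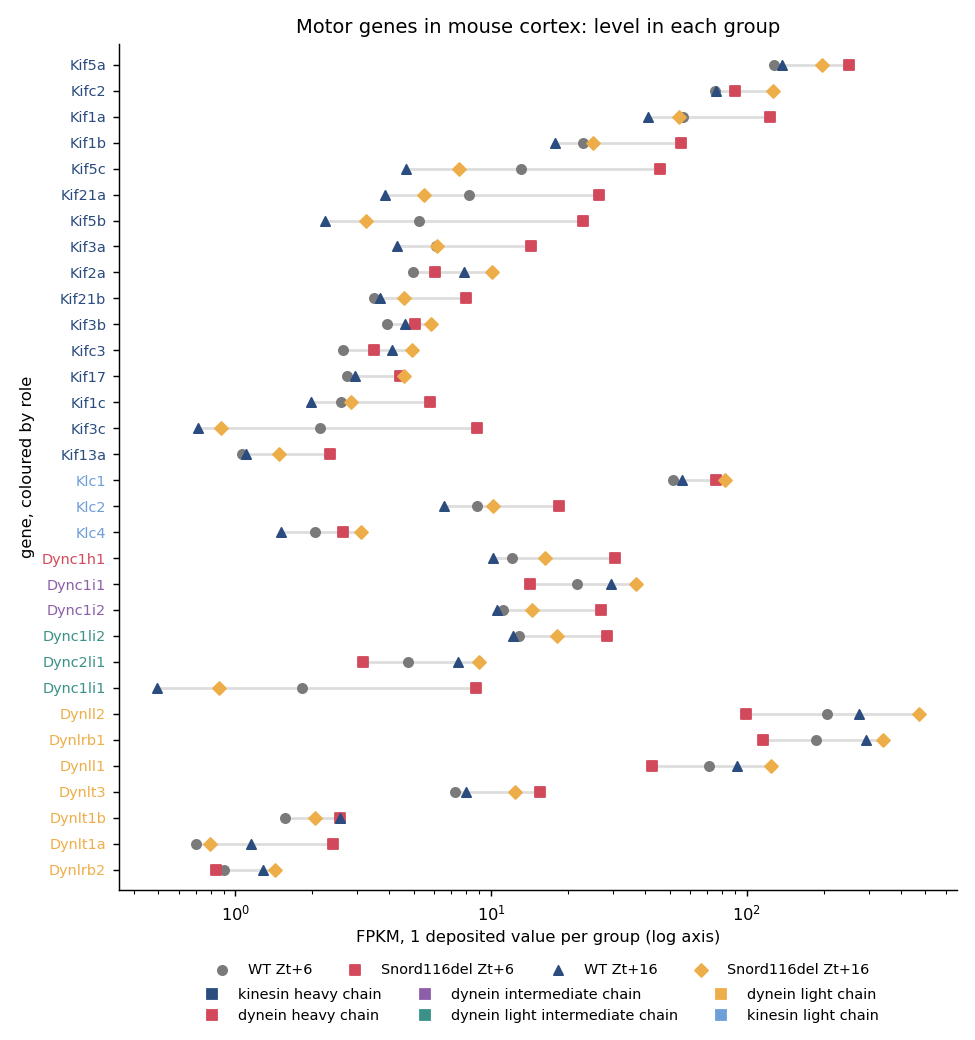
FPKM of the 32 tested motor genes in each of the 4 groups on a log axis, 1 point per group, with gene names coloured by role and a line from the lowest to the highest group. The Snord116del Zt+6 point is the rightmost for 12 of the 17 heavy chain genes and the leftmost for Dynll1, Dynll2 and Dynlrb1.

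Facts of the whole table bear on these values. Summed FPKM was 159300 and 160199 at Zt+6, and 216422 and 342188 at Zt+16. The median over tested genes was 3.17 FPKM and 5.63 at Zt+6, and 2.90 and 4.00 at Zt+16. Ipw, a transcript next to the deleted region, had 21.6 and 3.40 FPKM at Zt+6 and 3.17 and 1.82 at Zt+16, and Snord116 is listed at 0 in all groups, WT included, so it checks no label. The labels of both Snord116del Zt+6 mice and of 1 of the 3 WT Zt+6 mice name an earlier version of the table than the other mice do. What that marks is not stated, and it cannot be told apart from genotype at Zt+6. The 9 neuron markers were all tested, 7 of them were higher in Snord116del at Zt+6 and none lower, and their summed level was 971 and 1737 FPKM at Zt+6 and 748 and 1030 at Zt+16. The 6 astrocyte markers were all higher at Zt+6, with sums of 92.5 and 287 FPKM there and 46.3 and 66.9 at Zt+16. Of the markers of other cells, 3 of 6 for oligodendrocytes, 4 of 6 for microglia and 5 of 5 for endothelium were higher at Zt+6 and none lower. Over all tested genes 49.3% were higher there and 7.62% lower. The tested choroid plexus marker was not called, but its list summed to 204 and 186 FPKM at Zt+6 against 26.4 and 31.5 at Zt+16. The part of these shifts in the results below was not tested.

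At Zt+6 the median change was higher over the heavy chain genes than over the light chain genes. This difference turned sign once each gene was compared with genes of like transcript length, with light chain genes near the filter of 1 FPKM counted. In Snord116del cortex 18 of the 32 tested genes were higher and 3 were lower, where 49.3% of all 10297 tested genes were higher, 7.62% lower and 56.9% either. The share of higher genes, 56.2%, was thus near that of all genes. Of the 17 heavy chain genes, 12 were higher and none lower, with a median log2 fold change of 1.00. Of the 10 light chain genes, 3 were higher and 3 lower, with a median of 0.36. The median over all tested genes was 0.57, and the difference between the heavy and light medians was 0.64, or -0.38 with the trend along transcript length removed. The heavy chain genes were 16 of kinesin and 1 of dynein, and the light chain genes 3 and 7, so the contrast is in part one of kinesin with dynein. Within kinesin the difference was 0.44, and within dynein 1.32. Without Dynlt1a, which passed the filter only through the group where it is highest, 2 of 9 light chain genes were higher and 3 lower, with a median of 0.25.

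Kinesin-1, the conventional anterograde motor of axons, was higher at Zt+6 in all 3 of its heavy chain genes. All 3 have transcripts of at least 4520 bases, and 85.0% of all tested genes of that length were higher. Kif5b, expressed in many cell types, had 5.21 and 22.8 FPKM at Zt+6 (log2 fold change 1.94) and 2.23 and 3.23 at Zt+16. Kif5c had 13.1 and 46.0 FPKM at Zt+6 (log2 fold change 1.74) and 4.65 and 7.48 at Zt+16. The gene lies on mm9 chromosome 2 from 49474818 to 49630298. Kif5a, a neuronal member, had 128.0 and 251.6 FPKM at Zt+6 (log2 fold change 0.97) and 137.7 and 197.6 at Zt+16. For Kif5b and Kif5c the Snord116del Zt+6 value stood above the other 3 groups, which lay within 5.21 FPKM for Kif5b and within 13.1 for Kif5c, while for Kif5a both Snord116del values lay above both WT values.

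The light chains of kinesin-1 bind many of its cargoes. Klc1 had 51.7 and 75.8 FPKM at Zt+6 and 56.0 and 82.4 at Zt+16, log2 differences of 0.54 and 0.55 that missed the fold rule at both times. Klc2 was higher at Zt+6, at 8.81 and 18.4 FPKM, and had 6.56 and 10.2 at Zt+16. Klc4 had 2.05 and 2.63 FPKM at Zt+6 and passed the rule at Zt+16, at 1.51 and 3.09. The summed FPKM of the Kif5 genes was 2.33 (WT) and 3.30 times (Snord116del) that of the Klc genes at Zt+6, and 2.25 and 2.17 times at Zt+16.

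Kinesin-2 motors carry cargo in axons and cilia as a Kif3a subunit paired with Kif3b or Kif3c. Kif3a had 6.09 and 14.3 FPKM at Zt+6 (log2 fold change 1.11) and 4.27 and 6.17 at Zt+16. Its partners differed from each other. Kif3c had 2.13 and 8.85 FPKM at Zt+6 and 0.716 and 0.881 at Zt+16, while Kif3b had 3.93 and 5.05 at Zt+6 and 4.61 and 5.84 at Zt+16. Kif3c was thus higher in Snord116del at Zt+6 by 1.65 on the log2 scale, and Kif3b missed the rule with 0.30. The ratio of Kif3c to Kif3b was 0.543 (WT) and 1.75 (Snord116del) at Zt+6, but 0.155 and 0.151 at Zt+16. Kif17, which forms a homodimer, had 2.73 and 4.41 FPKM at Zt+6 and 2.95 and 4.56 at Zt+16, and missed the rule.

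All 4 tested kinesin-3 genes, motors of synaptic vesicle precursors and other membrane cargo, were higher at Zt+6. Their transcripts too have at least 4520 bases, a length at which 85.0% of all tested genes were higher. All 4 lay below the trend along transcript length, from -0.11 (Kif1b) to -0.48 (Kif13a). Kif1a, a main carrier of synaptic vesicle precursors, had 56.5 and 123.2 FPKM at Zt+6 and 41.0 and 54.6 at Zt+16. Kif1b had 23.0 and 55.1 FPKM at Zt+6 and 17.8 and 25.1 at Zt+16. The other two, Kif1c and Kif13a, had log2 fold changes of 0.91 and 0.69 at Zt+6. None of the 4 passed the rule at Zt+16. Both tested kinesin-4 genes, of the same length class, were higher at Zt+6, with 8.19 and 26.4 FPKM for Kif21a and 3.47 and 7.95 for Kif21b. At Zt+16 Kif21a had 3.84 and 5.49 FPKM and Kif21b 3.66 and 4.58, and neither was called.

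The remaining kinesins did not pass the rule at Zt+6. Kif2a, a kinesin-13 that takes microtubules apart at their ends, had 4.97 and 6.06 FPKM at Zt+6 and 7.80 and 10.0 at Zt+16. Kifc2, a minus-end directed kinesin-14, had 75.2 and 90.1 FPKM at Zt+6 and was higher at Zt+16, at 76.2 and 126.6. Kifc3 had 2.63 and 3.50 FPKM at Zt+6 and 4.11 and 4.89 at Zt+16.

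**Figure D2:**
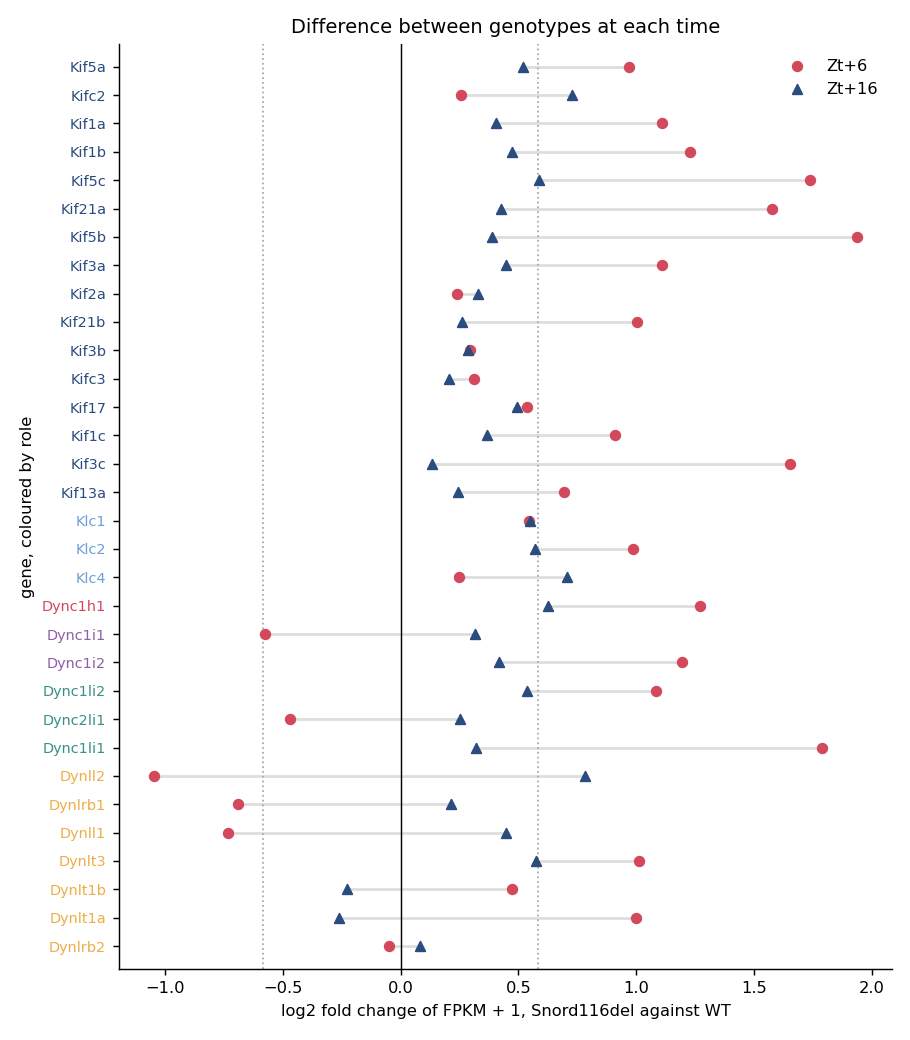
Log2 fold change of FPKM + 1 in Snord116del against WT for each of the 32 tested genes at Zt+6 (circles) and Zt+16 (triangles), with dotted lines at the 1.5-fold limit. At Zt+6 the points run from -1.05 for Dynll2 to 1.94 for Kif5b, and at Zt+16 from -0.26 for Dynlt1a to 0.78 for Dynll2.

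Subunits of the cytoplasmic dynein complex were called in both directions at Zt+6. Dync1h1, the heavy chain that carries the motor, lies on mm9 chromosome 12 from 111839662 to 111905155. It had 12.1 and 30.6 FPKM at Zt+6 and 10.2 and 16.3 at Zt+16, log2 fold changes of 1.27 and 0.63, and was called higher at both times. Of the light chains, 3 went the other way at Zt+6. Dynll2, on mm9 chromosome 11 from 87793027 to 87801035, had 206.7 and 99.6 FPKM at Zt+6 and 275.2 and 473.8 at Zt+16. Its log2 fold change was -1.05 at Zt+6 and 0.78 at Zt+16, and it was the only one of the 32 called in opposite directions at the 2 times. Scaling the groups to the same median, the same total or the same quantiles ended the call at Zt+16, with values of 0.32, 0.12 and 0.08, as did removing the length trend (0.41) or asking for a fold of 2, and each kept that at Zt+6. Dynll1 had 71.3 and 42.4 FPKM at Zt+6 and 91.4 and 125.0 at Zt+16, and was lower at Zt+6 by a log2 fold change of -0.73. Dynlrb1, the roadblock light chain, had 187.2 and 115.5 FPKM at Zt+6 and 294.0 and 341.2 at Zt+16, and was lower at Zt+6 by -0.69. For these 3 light chains the Snord116del Zt+6 group was the lowest of the 4 and the Snord116del Zt+16 group the highest. With the length trend removed the call of Dynlrb1 at Zt+6 ended, at -0.19, as it did with quantile normalization, at -0.53, while Dynll1 and Dynll2 stayed past the rule under both.

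None of the 3 tested Tctex light chain genes was lower at Zt+6. Dynlt3 had 7.21 and 15.5 FPKM at Zt+6 and was higher, and 7.99 and 12.4 at Zt+16. Dynlt1a had 0.698 and 2.40 FPKM at Zt+6 and 1.15 and 0.794 at Zt+16, and since it passed the filter only through its Zt+6 value in Snord116del, its call there is no support for a difference. Dynlt1b had 1.57 and 2.57 FPKM at Zt+6 and 2.58 and 2.05 at Zt+16. Dynlt1a, Dynlt1b, Dynlt1c, Dynlt1e and Dynlt1f are near-identical copies on chromosome 17, so that the split of reads between them is uncertain. The remaining light chain gene, Dynlrb2, had 0.900 and 0.837 FPKM at Zt+6 and 1.29 and 1.42 at Zt+16. In FPKM, a level per length, the 2 Dynll genes summed to 23.0 times (WT) and 4.65 times (Snord116del) the value of Dync1h1 at Zt+6, and to 35.9 and 36.7 times at Zt+16. Dynlrb1 to Dync1h1 was 15.5 and 3.78 at Zt+6 and 28.8 and 20.9 at Zt+16.

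Pairs of alternative subunits within the dynein complex also changed their balance at Zt+6. Of the intermediate chains, which bind dynactin, Dync1i1 had 21.7 and 14.2 FPKM at Zt+6 and 29.4 and 36.8 at Zt+16. Dync1i2 had 11.2 and 26.8 at Zt+6 and 10.5 and 14.4 at Zt+16. Dync1i2 was higher at Zt+6 (log2 fold change 1.19), and Dync1i1, with -0.58, lay just inside the limit of 0.585 on the log2 scale and was not called. The ratio of Dync1i1 to Dync1i2 was 1.95 (WT) and 0.531 (Snord116del) at Zt+6, and 2.79 and 2.56 at Zt+16. Among the light intermediate chains, which bind the adaptors that join dynein to cargo, Dync1li1 had 1.82 and 8.74 FPKM at Zt+6 and 0.494 and 0.865 at Zt+16. Dync1li2 had 12.9 and 28.4 FPKM at Zt+6 and 12.2 and 18.2 at Zt+16, so that both were higher at Zt+6. Dync1li1 was 0.142 (WT) and 0.308 (Snord116del) of Dync1li2 at Zt+6, and 0.0404 and 0.0476 at Zt+16. Dync2li1, the light intermediate chain of ciliary dynein, had 4.73 and 3.14 FPKM at Zt+6 and 7.42 and 9.01 at Zt+16.

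**Figure D3:**
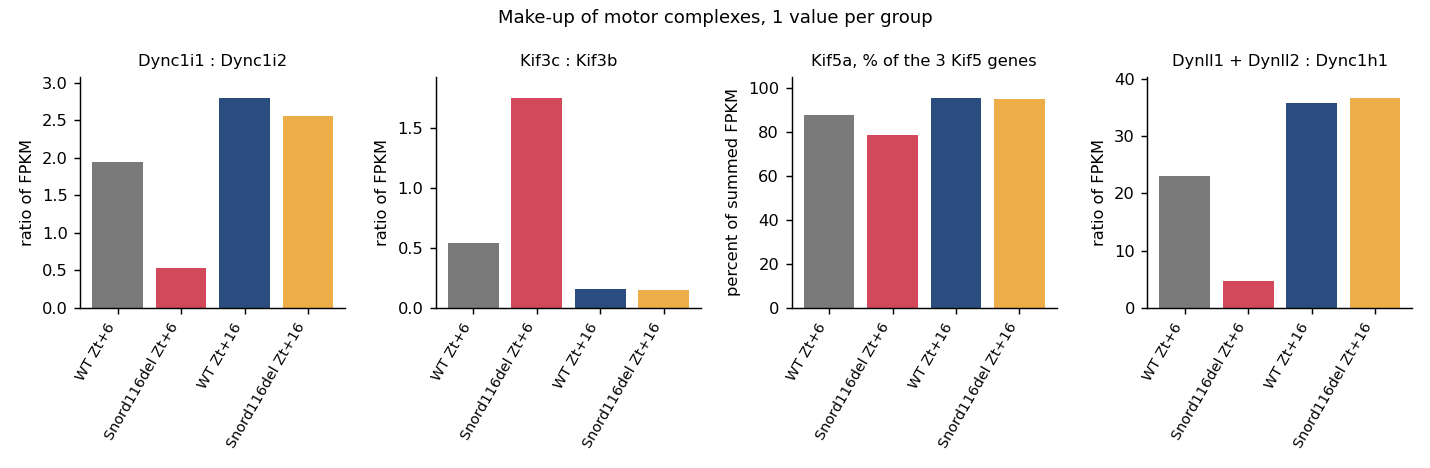
Ratios of FPKM between motor subunit genes and the percentage of Kif5a among the Kif5 genes, 1 bar per group on axes that start at 0. Ratios of RNA levels do not give the make-up of a protein complex. The Snord116del Zt+6 bar is the lowest for Dync1i1 to Dync1i2 (0.531), Kif5a (78.5%) and the Dynll genes to Dync1h1 (4.65), and the highest for Kif3c to Kif3b (1.75). The 2 bars at Zt+16 are close to each other, and for Kif5a WT Zt+6 (87.5%) also lies below both (95.2% and 94.9%).

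These ratios do not depend on the scale given to a group, but those of genes of unlike length are exposed to the trend along transcript length. At Zt+6 that trend was 1.35 for Dync1h1 against 0.44, 0.35 and -0.51 for Dynll2, Dynll1 and Dynlrb1. It was 0.87 for Dync1i2 against 0.41 for Dync1i1. For Kif3c and Kif3b it was 1.15 and 1.05, and for Kif5a, Kif5b and Kif5c 1.10, 1.10 and 1.15. The part of the trend in the ratios was not tested. At Zt+16 WT and Snord116del were near each other in the ratios drawn, with Kif5a at 95.2% and 94.9% of the summed Kif5 FPKM, against 87.5% and 78.5% at Zt+6. The WT Zt+6 value lay between the Snord116del Zt+6 value and the Zt+16 values in each of the 4 ratios plotted. Not every ratio ran this way. Dynll2 to Dynll1 was 2.90 (WT) and 2.35 (Snord116del) at Zt+6, and 3.01 and 3.79 at Zt+16. Kif3a to the sum of Kif3b and Kif3c was 1.01 and 1.03 at Zt+6, and 0.801 and 0.918 at Zt+16.

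At Zt+16 the genotypes differed less. Of the 32 genes 5 were higher in Snord116del and none lower, where 19.0% of all tested genes were higher, 0.204% lower and 19.2% either. These 5 were Dynll2, Kifc2, Klc4, Dync1h1 and Kif5c, with log2 fold changes from 0.59 to 0.78. The median was 0.40 over the heavy and 0.50 over the light chain genes, and 0.35 over all tested genes. None of the 5 calls was left when the groups were scaled to the same median, which moved the median of all tested genes from 0.35 to 0.01, and the values at Zt+16 are to be read against that shift. The same scaling at Zt+6 moved the median from 0.57 to -0.06 and left 5 of the 32 genes higher and 5 lower, where 15.0% and 24.4% of all tested genes were.

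The differences between times of day share groups with the comparisons of genotype, so their values are given side by side. In WT, 1 of the 32 genes was higher and 5 lower at Zt+16 than at Zt+6, where 5.71% of all tested genes were higher, 10.3% lower and 16.0% either. The higher gene was Dynlrb1, with 0.65 on the log2 scale. The 5 lower genes were Kif5c (-1.32), Kif5b (-0.94), Dync1li1 (-0.92), Kif21a (-0.92) and Kif3c (-0.87). In Snord116del, 6 were higher and 15 lower, where 25.0% and 39.1% of all tested genes were, 64.0% in all. The same 5 genes had log2 fold changes of -2.47, -2.49, -2.38, -2.08 and -2.39 there. Dynll2, Dynlrb1 and Dynll1 were higher at Zt+16 in Snord116del by 2.24, 1.55 and 1.54, and Dync1i1, Dync2li1 and Kif2a by 1.31, 1.27 and 0.65. With the groups scaled to the same total, the median of all tested genes between the times in Snord116del moved from -0.24 to -1.09, 1 motor gene was higher and 24 lower (8.31% and 66.6% of all tested genes), and the sign for Kif2a turned, to -0.32. With the same median it moved to 0.13, and 10 were higher and 9 lower (35.0% and 26.5%).

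The contrast of heavy with light chains ran along transcript length in all genes. With the tested genes divided into 4 sets of equal number by their longest annotated transcript, the median log2 fold change at Zt+6 was -0.10 in the shortest set (up to 1911 bases), 0.42 and 0.71 in the middle sets, and 1.10 in the longest (from 4520 bases). Of the 16 motor genes in the longest set 14 were higher at Zt+6 and none lower, where 85.0% and 0.353% of all genes in that set were. Of the 4 in the next set 1 was higher and none lower (59.5% and 1.42% of all genes), and of the 7 in the set after it 2 were higher and 2 lower (37.8% and 4.21%). Of the 5 motor genes in the shortest set 1 was higher and 1 lower, where 15.0% and 24.0% of all genes in it were. Spearman's rho between length and log2 fold change was 0.60 over the 32 motor genes and 0.63 over the 10165 tested genes with a length. These are descriptions, since the genes share the same pooled groups. In the other comparisons the longest set had 2 of 16 motor genes higher in Snord116del at Zt+16 (4.47% of all genes in it), 4 of 16 lower at Zt+16 than at Zt+6 in WT (22.2%) and 12 of 16 lower in Snord116del (75.2%).

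**Figure D4:**
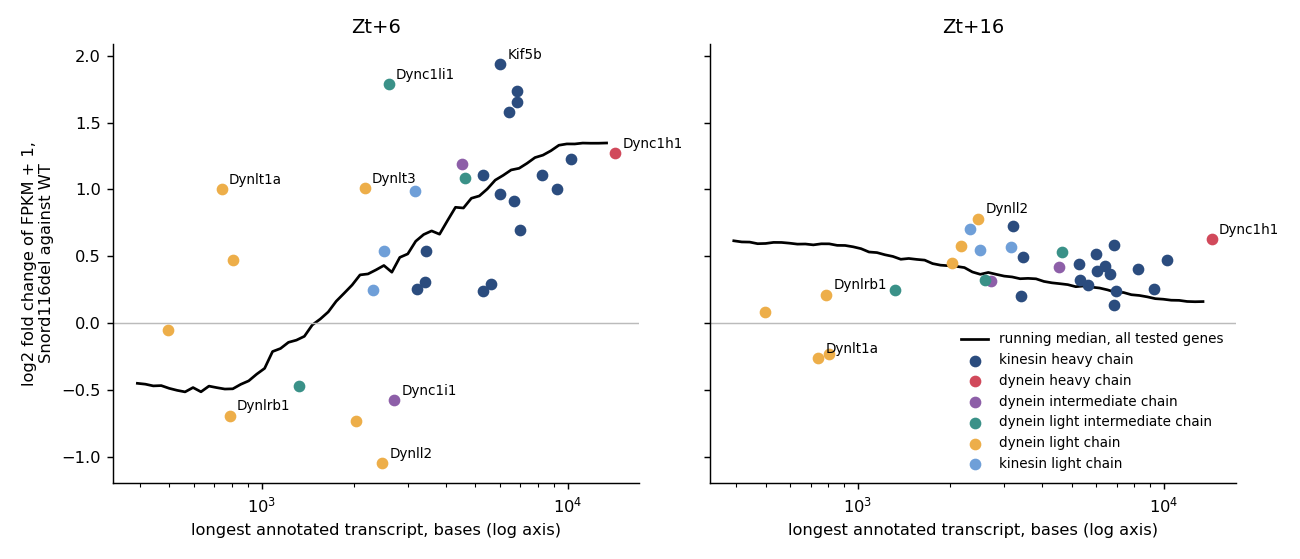
Log2 fold change of FPKM + 1 in Snord116del against WT against the length of the longest annotated transcript (log axis) for the 32 motor genes at Zt+6 (left) and Zt+16 (right), coloured by role, with the running median of all tested genes as a line. At Zt+6 the line climbs with length and Dync1h1 lies near it, while Kif5b and Dync1li1 lie above and Dynll2 and Dync1i1 below; at Zt+16 the line falls slightly with length.

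Read against the running median of genes of like length, the contrast of heavy and light chains at Zt+6 turned, from 0.64 to -0.38. Dynlt1a and other light chain genes near the filter were counted in both. Of the 32 genes, 6 then lay at least 1.5-fold above the trend and 5 below it, where 12.7% and 13.6% of all genes with a length did, so that both counts are near the background. The 6 above were Dynlt1a (with the limit of the filter given above), Dync1li1 (1.39), Dynlt1b (0.97), Kif5b (0.84), Dynlt3 (0.62) and Kif5c (0.59). The 5 below were Dynll2 (-1.48), Dynll1 (-1.08), Dync1i1 (-0.99), Kif2a (-0.75) and Kif3b (-0.75). Dync1h1, at -0.08, lay on the trend, and Kif1a and Kif1b lay at -0.15 and -0.11. Subunits of one complex were thus on both sides of the line, as Dync1li1 and Dynll2 show at nearly the same length, 2601 and 2476 bases. At Zt+16 the trend of all genes ran the other way, with a rho of -0.38, and rho over the motor genes was 0.17.

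Genes that work with the motors were counted from lists, to be read against all tested genes, of which 49.3% were higher and 7.62% lower at Zt+6 and 19.0% were higher at Zt+16. Of the 12 tested dynactin genes, 4 were higher at Zt+6 and 3 lower, and 5 were higher at Zt+16. Capzb, a capping subunit with the highest level, had 79.0 and 94.0 FPKM at Zt+6, and Dctn6 had 62.7 and 26.6. The lower genes were Dctn6 (-1.21), Dctn2 (-0.79) and Dctn3 (-0.68). Of 20 motor adaptors and regulators 15 were higher at Zt+6 and none lower, and 4 were higher at Zt+16. The 2 with the highest level, Nudc and Kifap3, the latter the partner of Kif3a, were not called at Zt+6, with log2 differences of 0.15 and 0.56. Of 13 tested tubulins 3 were higher at Zt+6 and 1 lower, and 6 were higher at Zt+16. The lower one was Tuba1b, with 227.9 and 70.4 FPKM at Zt+6 and 342.4 and 577.5 at Zt+16, and near-identical tubulin genes can share reads. Of 14 microtubule-associated genes 9 were higher at Zt+6 and 2 lower, the latter being Stmn3 (415.0 and 194.1 FPKM) and Stmn1 (116.2 and 74.5), both stathmins, which bind tubulin dimers. At Zt+16, 5 of these 14 were higher. Of the axonemal dynein genes, 2 were tested, with Dnalc4 lower (-1.02) and Dnalc1 higher (1.14) at Zt+6.

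RefSeq promoters (250 bases before the start, GRCm38.p6) were read for the 21 tested genes that have an entry, because time of day was a factor of the design. The others were Dync1li2, Dync2li1, Dynll2, Dynlt1a, Dynlt1b, Kif21b, Kif5a, Kif5b, Kifc2, Kifc3 and Klc2. The motifs searched, on both strands, were the E-box CACGTG, to which the clock proteins CLOCK and BMAL1 bind, the GC box GGGCGG, and the cAMP response element TGACGTCA. The E-box and the cAMP response element share the letters ACGT, and neither contains the other. The E-box was in 2 of the 21 genes (Kif1a, at its inner start only, and Klc4), where 6.86% of 27025 genes had it. The GC box was in 16 of the 21, where 35.4% of all genes had it, and the cAMP response element was in 3 (Kif17, Kif5c and Klc1), where 1.77% did. These shares are over genes of any level, while the 21 passed the filter on the mean. The shares among tested genes were not counted, so no enrichment in motor genes can be read from them. A match describes the letters in this window and is not a binding site.

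The promoters shown are those of the genes with the largest changes at Zt+6 in each direction among genes with a single entry, Dync1li1 (chr9:114688581-114688830, plus strand) and Dynll1 (chr5:115300991-115301240, minus strand), and the 2 that hold an E-box, Kif1a at the start further inside the gene (chr1:93082481-93082730, minus strand) and Klc4 (chr17:46646081-46646330, minus strand). They run 5′ to 3′ towards the start, and capitals mark the E-box and the GC box in either orientation.
Dync1li1: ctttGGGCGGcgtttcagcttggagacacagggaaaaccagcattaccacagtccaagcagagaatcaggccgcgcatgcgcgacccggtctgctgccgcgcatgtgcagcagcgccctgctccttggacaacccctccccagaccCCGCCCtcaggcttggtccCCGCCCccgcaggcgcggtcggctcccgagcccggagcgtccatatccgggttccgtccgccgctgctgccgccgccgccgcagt
Dynll1: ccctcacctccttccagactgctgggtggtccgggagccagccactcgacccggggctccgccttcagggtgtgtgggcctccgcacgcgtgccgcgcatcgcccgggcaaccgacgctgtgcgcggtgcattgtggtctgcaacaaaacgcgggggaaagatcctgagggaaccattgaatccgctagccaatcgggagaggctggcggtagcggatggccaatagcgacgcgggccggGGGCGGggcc
Kif1a: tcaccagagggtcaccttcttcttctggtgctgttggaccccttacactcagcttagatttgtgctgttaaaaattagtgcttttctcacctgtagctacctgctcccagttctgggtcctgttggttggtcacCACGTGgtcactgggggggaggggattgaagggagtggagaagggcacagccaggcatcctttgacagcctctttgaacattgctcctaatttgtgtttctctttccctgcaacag
Klc4: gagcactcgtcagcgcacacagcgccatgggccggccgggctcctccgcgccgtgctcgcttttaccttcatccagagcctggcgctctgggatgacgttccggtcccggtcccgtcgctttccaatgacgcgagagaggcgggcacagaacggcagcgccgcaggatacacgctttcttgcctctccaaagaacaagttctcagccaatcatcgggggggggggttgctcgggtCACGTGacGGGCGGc
The E-box of Klc4 began 15 bases before the start and that of Kif1a 116 bases before it. The window at the outer start of Kif1a (chr1:93101875-93102124, minus strand) held no E-box. Whether the inner window acts as a promoter in cortex was not tested. Dync1li1 held 3 GC boxes and Dynll1 held 1. Klc4 and Kif1a had log2 differences of -0.28 and -0.45 between the times in WT, neither past the fold rule.

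Chromatin isolation by RNA purification (ChIRP) pulls an RNA out of fixed chromatin with biotinylated oligos and sequences the DNA that comes with it. Peak lists were from adult mouse brain and comprised 2 libraries with oligos against 116HG in WT, and single libraries with non-specific control (NSC) oligos in WT, with 116HG oligos in Snord116del and with NSC oligos in Snord116del. The authors called peaks in each library on mm9. WT 116HG replicate 1 holds 78033 peaks and replicate 2 holds 11145, and both were counted at a gene when within 2 kb of it.

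WT 116HG replicate 1 had 502 peaks at 47 of the 63 motor genes (74.6%), where 59.3% of all genes had one. Among the 32 tested genes 30 had a peak (93.8%), where 93.6% of all tested genes did. Dync1h1 had 75 peaks, Kif1a 52, Kif1b 44, Kif21a 32 and Kif5a 31, whereas Dynll2 and Dynlrb1, both far above Dync1h1 in FPKM, had 5 each. Across the 32 tested genes, rho with the number of peaks was 0.71 for transcript length, 0.60 for mean FPKM and 0.49 for the length of the gene. These are descriptions over genes that share 1 library. The middle of 430 of the 502 peaks (85.7%) lay in an annotated exon of the gene. The share in exons over all peaks is not given for either replicate, so this placement cannot be called particular to motor genes.

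**Figure D5:**
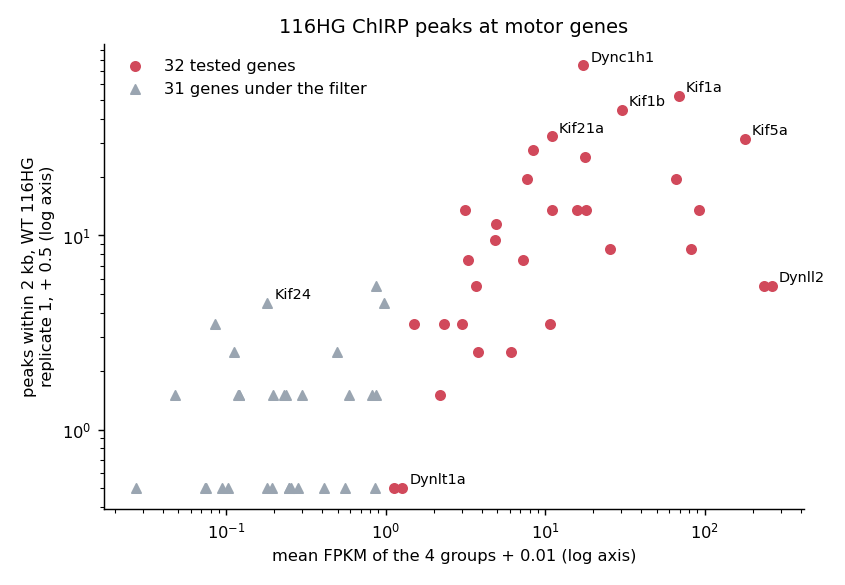
Number of WT 116HG replicate 1 peaks within 2 kb of each of the 63 motor genes, plus 0.5, against mean FPKM of the 4 groups, plus 0.01, both on log axes, with tested genes as circles and genes under the filter as triangles. Dync1h1 is highest with 75 peaks, and Dynll2, far to the right, has 5.

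WT 116HG replicate 2 was unlike it. It had 22 peaks at 15 of the 63 motor genes, where 13.8% of all genes had one, and 9 of the 32 tested genes were among them, where 17.5% of all tested genes were, and the middle of 1 of the 22 (4.55%) lay in an exon. Peaks of replicate 1 within 10 kb of a replicate 2 peak were at 11 motor genes, where 10.9% of all genes had one, namely Dync1i1, Dync1i2, Dync1li1, Kif13a, Kif1a, Kif1b, Kif24, Kif3a, Kif3b, Kifc2 and Kifc5b. Of these, Kif3b and Kifc2 had no replicate 2 peak within 2 kb of the gene, and counted from replicate 2 there were 9 motor genes. Peaks that overlapped directly were at 3 of the 63, Dync1i2, Kif3a and Kifc5b, where 3.32% of all genes had one. In the controls, WT NSC had a peak at 1 motor gene, Kif22 (2.30% of all genes), and Snord116del 116HG had peaks at 2, Kif26a and Kifc2 (2.26%). Snord116del NSC had 9 peaks at 6 (7.87%), Kifc2 among them, so Kifc2 had a peak in both deletion lists.

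Of the overlapping peaks, those that touch no annotated UTR are shown for what their letters hold. They are the Dync1i2 peak of replicate 1 (chr2:71098304-71098448, its middle in the last exon of a retained-intron transcript and otherwise intronic, fold over input 104) and the Kifc5b peak of replicate 1 (chr17:27055389-27055467, intron, fold over input 71.8). Both are on mm9 and printed on the plus strand. Capitals mark the bases shared with the peak of replicate 2.
Dync1i2: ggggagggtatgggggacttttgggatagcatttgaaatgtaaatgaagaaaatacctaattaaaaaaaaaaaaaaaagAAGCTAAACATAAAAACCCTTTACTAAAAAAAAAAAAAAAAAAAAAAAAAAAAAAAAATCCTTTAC
Kifc5b: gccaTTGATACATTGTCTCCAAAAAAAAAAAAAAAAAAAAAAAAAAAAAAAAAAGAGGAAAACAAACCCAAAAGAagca
The shared part holds an unbroken run of 33 A at Dync1i2 and of 34 A at Kifc5b. The middle 32 bases of the Kifc5b peak occur 6386 times in the genome, both strands counted, while those of the Dync1i2 peak occur once. Kifc5b is also a near-identical copy of Kifc1, and reads of both can be split between them.

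Runs of this kind were a feature of replicate 2. Of its 22 peaks at motor genes 10 (45.5%) held at least 15 A or T in a row, where 38.3% of the 10664 peaks of that library on the reference did. In replicate 1 it was 11 of 502 (2.19%) at motor genes and 11.0% of all its peaks. None of the peaks of the control lists at motor genes held one, but these numbered only 1 (WT NSC), 2 (Snord116del 116HG) and 9 (Snord116del NSC). Of all peaks of those lists 6.99%, 0.944% and 1.18% did. Such small counts allow no contrast with the WT 116HG lists. The peaks of both replicates at Dync1i2 and Kifc5b are therefore among the few of replicate 1 with such a run, and the part of the run in the overlap was not tested.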

How the data were processed

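Values of 63 motor genes were taken from an RNA-seq table of 9 mice in 4 groups, and from peak lists of 5 ChIRP libraries. For the table, the authors aligned reads with TopHat2 2.0.5 to mm9 and deposited 1 Cuffdiff 2.0.2 FPKM value per group and gene. Its columns of log2 fold change, p-value and q-value are the authors' own comparisons and were not used; columns of per-sample values left unused numbered 0. The read depth behind each FPKM is not in the table. For the peaks, the authors aligned with Bowtie2 2.0.0, called with MACS 1.4.2 in each library and deposited a fold over input, a ratio, except for WT 116HG replicate 2, whose list has positions only. Versions are from the submitters' processing notes.

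Fold changes were log2 of FPKM + 1, called at 1.5-fold among genes whose mean reached 1 FPKM. Transcript lengths and positions came from GENCODE on NCBIM37, the assembly of mm9. The length trend was a running median over 501 genes. No test was possible with 1 value per group. Named were, in each role class and kinesin family, the 3 with the highest mean FPKM, the 5 largest changes each way at Zt+6 and 3 at Zt+16, genes called in opposite directions, and the 5 longest and shortest transcripts; other members were named after their values were seen. The members, lists and alternatives were chosen with earlier results of these data known. The steps were tested on simulated data. The software was pandas 2.3.3, numpy 2.4.6, matplotlib 3.10.9 and scipy 1.17.1 under Python 3.11.15. One peak sequence is not reported here.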

Additional observations from a re-analysis of the deposited data

Results flagged for a closer look

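Dynll2 was called in opposite directions at the 2 times, with a log2 fold change in Snord116del against WT of -1.05 at Zt+6 and 0.78 at Zt+16. The difference between the times was not tested, since the table has 1 value per group. The value at Zt+6 stayed past the fold rule under each alternative that gave one, whereas that at Zt+16 was 0.32 with groups scaled to the same median, 0.12 with the same total, 0.08 with quantile normalization and 0.41 with the length trend removed, and it did not reach a fold of 2.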

How the results depend on the processing

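No paired analysis was possible because the table has 1 value per group, and for the same reason no mouse could be left out. The number of motor genes past the fold rule at Zt+6 was 21, 10 with groups scaled to the same median and 11 with the length trend removed. At Zt+16 it was 5, 8 with a pseudocount of 0.1, 0 with the same median, with quantile normalization and with a fold of 2, 1 with the same total and 2 with the trend removed. Between times it was 6 in WT (11 with the pseudocount, 10 with the same median, 12 with the same total, 1 with a fold of 2) and 21 in Snord116del (13 with a fold of 2). Higher against lower at Zt+6 was 18 to 3, 5 to 5 with the same median, 18 to 4 with the same total and 14 to 4 with quantile normalization. At Zt+16 it was 5 to 0, but 0 to 1 with the same total and 0 to 2 with the trend removed (Dynlt1a and Dynlt1b). Between times it was 1 to 5 in WT, and 5 to 5 and 0 to 12 with the same median and total. In Snord116del it was 6 to 15, 10 to 9 and 1 to 24 with the same median and total, and 11 to 8 with the trend removed. The heavy minus light median at Zt+6 was 0.64, 0.22 with no filter and 1.24 with a mean of at least 5 FPKM. With the trend removed it was -0.38 (Dynlt1a and other genes near the filter included). For kinesin alone it was 0.44, and for dynein alone, where 1 heavy chain gene was tested, it was 1.32. At Zt+16 it was -0.095, and -0.0021, 0.0040, 0.039, 0.10 and 0.076 with the pseudocount, same median, same total, quantile normalization and trend removed, 0.41 for dynein and -0.17 for kinesin. In WT between times it was -0.52, -0.29 with no filter, 0.059 with the trend removed and 0.16 for kinesin alone; in Snord116del it was -0.97, and -0.36, -1.93 and 0.74 with no filter, a mean of 5 and the trend removed. With the median annotated transcript in place of the longest, rho fell from 0.60 to 0.17 at Zt+6, from 0.17 to -0.083 at Zt+16, and from -0.59 to -0.25 and -0.19 between times. With the trend removed the sign of called genes turned at Zt+6 for Dync1h1 (-0.081), Kif13a (-0.48), Kif1a (-0.15), Kif1b (-0.11), Kif1c (-0.24), Kif21b (-0.31) and Kif5a (-0.13), and between times in Snord116del for Dync1h1 (0.89), Dync1li2 (0.15), Kif1a (0.33), Kif1b (0.57), Kif1c (0.45) and Kif21b (0.94); Kif2a went to -0.32 with the same total. The 11 genes with a replicated peak became 3 with direct overlap, 7 with only the peaks of highest fold over input, and 15 to 47 without 1 replicate. The cause of these shifts was not tested.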
